A study of Mus musculus with 4 samples.

Results

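The genes described here are 10 genes of cellular iron uptake, storage and export, taken by symbol from the 22287 genes of the mRNA table. They are transferrin (Trf), the transferrin receptor (Tfrc), the endosomal ferrireductase Steap3, the ferritin subunits Fth1 and Ftl1, the ferritin autophagy receptor Ncoa4, the iron exporter ferroportin (Slc40a1), the iron regulatory proteins Aco1 and Ireb2, and the mitochondrial iron importer mitoferrin-1 (Slc25a37). All 10 symbols had a single row, and all 10 reached the minimum of 20 reads over both libraries that made a gene measured, as 11872 genes did. The cells were N2a, a mouse neuroblastoma line that the labels assign to the strain C57BL/6. The Mn-treated cells had been kept in MEM with 300 µM manganese for 48 h, with no salt named, and the untreated cells served as the comparison. Which library was treated is given by the sample titles alone, since the treatment text in the labels is the same for every library, and the direction of each ratio rests on those titles. Total RNA freed of ribosomal RNA was sequenced once per condition. With no replicates, a ratio describes this pair of libraries and cannot be extended to the treatment.

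Cells take up iron as iron-loaded transferrin bound to the transferrin receptor. In the endosome a STEAP reductase turns ferric into ferrous iron, which a divalent metal transporter passes to the cytosol. Surplus iron is stored in ferritin, a shell of heavy and light chains, or leaves the cell through ferroportin. Iron regulatory proteins sense the cytosolic iron supply. When iron is scarce they bind iron-responsive elements (IREs), RNA hairpins that block translation when they lie ahead of the coding sequence, as in Fth1, Ftl1 and Slc40a1, and that stabilise the transcript when they lie after it, as in Tfrc. RNA levels can therefore show the control of Tfrc but not the translational control of ferritin and ferroportin.

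Reads assigned to mRNA genes numbered 14606961 in the Mn-treated and 13972437 in the untreated library. Of the 14 sympathoadrenal and neuroblastoma markers examined, 13 had at least 10 reads in each library, including Hand2 and Dbh, and 1 was at 0 in both. Isl1, with 143 reads in the Mn-treated and 252 in the untreated library, had the lowest ratio of the 14. Gap43, with 578 and 261 reads, had the highest. Markers of hepatocytes, which make most circulating transferrin, summed to 0 reads in the Mn-treated and 1 in the untreated library. Those of macrophages summed to 16 and 5 reads. Of the 9 erythroid markers, 5 were at 0 in both libraries, among them Klf1 and Alas2, and the sums were 73 and 51 reads, mostly of Epor. Of the 7 oligodendrocyte and Schwann cell markers, whose summed reads were 1065 and 893, Mag and Mobp were at 0. In bulk RNA, fewer cells of a type and less RNA per cell cannot be told apart.

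By level, the ferritin subunits stood far above the other 8 genes. FPKM, the authors' measure of reads corrected for transcript length and depth, allows levels of different genes to be compared. Ftl1, the light chain, had 2222.47 FPKM in the Mn-treated and 1931.12 FPKM in the untreated library, where it ranked 22nd and 24th of all genes. Fth1, the heavy chain that oxidises ferrous iron, had 203.99 and 170.12 FPKM. Aco1 followed with 9.96 and 9.32 FPKM.

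Below Aco1 the order of the levels differed between the libraries. In the Mn-treated library it was Ncoa4 at 7.68 FPKM, Ireb2 at 4.88, Tfrc at 3.46 and Steap3 at 2.40. These 4 levels had separate counting intervals there, which do not cover the step from reads to FPKM. Reads per FPKM were 49.3 with manganese and 81.5 without for Ncoa4, and 53.4 and 40.7 for Steap3. The part of that step in the order of the levels was not tested. In the untreated library it was Steap3 at 4.13, Ireb2 at 3.48, Ncoa4 at 3.35 and Tfrc at 2.09 FPKM. The counting intervals of Steap3, Ireb2 and Ncoa4 overlapped there, at 3.53 to 4.80, 3.18 to 3.81 and 2.96 to 3.77 FPKM, while that of Tfrc lay below them. The lowest levels were those of Slc40a1 at 1.06 and 0.32 FPKM in the Mn-treated and the untreated library, Slc25a37 at 0.85 and 1.49 FPKM, and Trf at 0.30 and 0.07 FPKM. Slc40a1 and Slc25a37 overlapped in the Mn-treated library, at 0.850 to 1.31 and 0.670 to 1.06 FPKM.

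**Figure D1:**
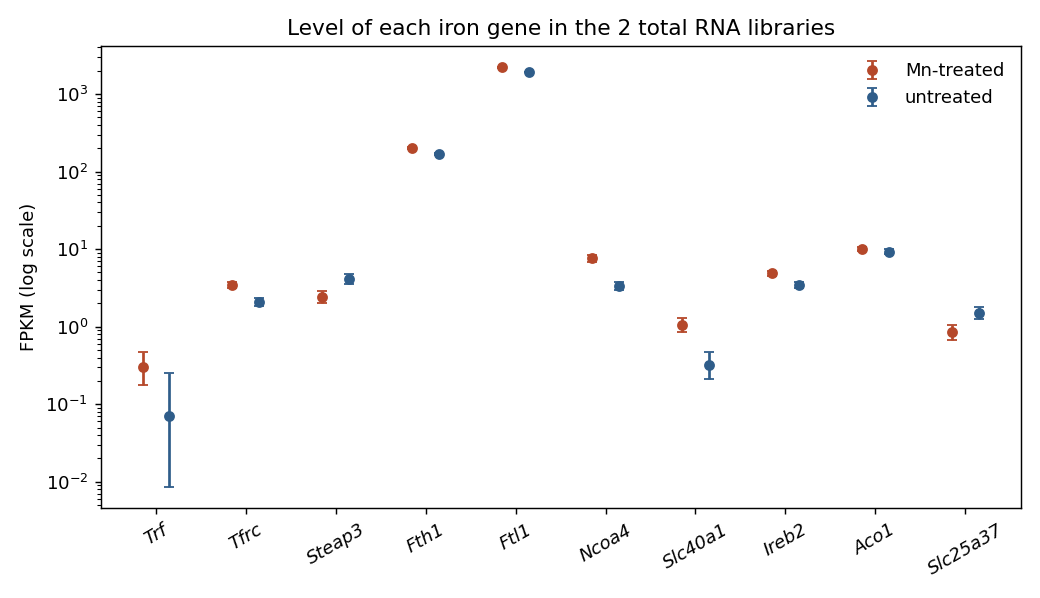
Level of each of the 10 iron genes in FPKM, on a log axis, in the Mn-treated (left) and the untreated library (right), with 95% Poisson intervals that cover counting error only. Ftl1 and Fth1 lie above 100 FPKM in both libraries, and the other 8 genes lie below 10 FPKM.

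Between the libraries, 3 of the 10 genes had at least 1.5-fold more of the reads with manganese, namely Trf, Slc40a1 and Tfrc, and 1 had at least 1.5-fold less, Slc25a37. Of all measured genes 21.6% were higher and 5.97% lower by that fold, so at this fold the count of higher and lower members lies close to that background. The log2 ratio used here is that of the reads plus 0.5 over the column total, Mn-treated over untreated, with an exact binomial 95% interval in brackets that covers counting error only. The median log2 ratio of the 10 genes was 0.33, and that of all measured genes was 0.18. Scaling by the median ratio of all measured genes instead lowered every log2 ratio by 0.18. Then 2 members were higher and 2 lower by 1.5-fold, beside 13.4% and 11.3% of all measured genes. By the FPKM ratio in the authors' deposited table, members were higher in 4 cases and lower in 2, beside 21.7% and 6.93%. Trf reached the minimum of 20 reads only through the Mn-treated library, where it was high. With a minimum of 100 reads it drops out, and 2 members were higher and 1 lower, beside 18.8% and 4.65% of the 10268 genes left.

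**Figure D2:**
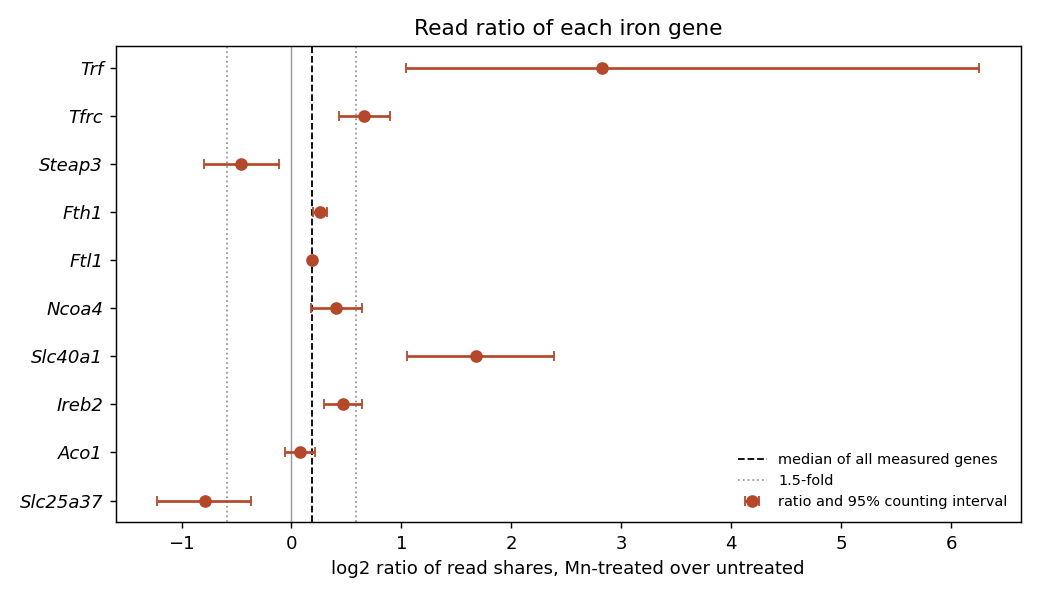
Log2 ratio of read shares, Mn-treated over untreated, for each of the 10 iron genes, with 95% binomial intervals that cover counting error only. Trf, Slc40a1 and Tfrc lie beyond the upper 1.5-fold line and Slc25a37 beyond the lower, and the dashed line is the median of all measured genes at 0.18.

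The genes of uptake did not share a direction. Tfrc, the receptor that brings in iron-loaded transferrin, had 404 reads in the Mn-treated library and 244 in the untreated library. Its ratio was 1.58 [1.35 to 1.86], a log2 ratio of 0.66, which was 0.48 with median-ratio scaling and then under 1.5-fold. Of all measured genes 17.6% had a higher log2 ratio. Steap3, which reduces iron released in the endosome, had 128 reads in the Mn-treated library and 168 in the untreated library, a log2 ratio of -0.46 [-0.80 to -0.12]. With median-ratio scaling it was at -0.64, past 1.5-fold. Both genes had fractional estimated counts, so some of their reads could be shared with other gene models.

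Trf, which encodes the carrier of iron in plasma and is made in the brain by oligodendrocytes, was close to the limit of detection. It had 18 reads with manganese, against 2 in the untreated library, a ratio of 7.08 [2.06 to 76.5]. The ratio of 7.08 rests on those 2 reads. The higher reads of Trf stood beside oligodendrocyte and Schwann cell markers with Mbp at a log2 ratio of 0.64 and Cnp at 0.04. Mog had 0 and 2 reads. Their part in the Trf reads was not tested.

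Slc40a1, which encodes the only known iron exporter of mammalian cells, had the second highest ratio of the 10 genes. It had 88 reads in the Mn-treated library and 26 in the untreated library, all whole counts. The ratio was 3.19 [2.07 to 5.23], a log2 ratio of 1.68, or 1.49 with median-ratio scaling, and 1.92% of all measured genes had a higher log2 ratio. At 2-fold, 2 of the 10 genes were higher, Slc40a1 and Trf, and 0 lower, beside 7.26% and 1.70% of all measured genes, and only Slc40a1 of the pair had over 20 reads. The level stayed low, at 1.06 FPKM with manganese, against 2222.47 FPKM for the ferritin light chain.

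The ferritin chains lay near the middle of all genes. Fth1 had 4665 reads in the Mn-treated library and 3735 in the untreated library, a log2 ratio of 0.26 [0.19 to 0.32]. Ftl1 had 53095 reads with manganese and 44622 without, which put it at 0.19 [0.17 to 0.20]. Against the median of 0.18, Fth1 was 0.07 and Ftl1 0.004 above the middle gene, and these were the differences that remained with median-ratio scaling. The light chain took 0.363% of all mRNA reads with manganese and 0.319% without. Light chain reads per heavy chain read were 11.4 in the Mn-treated and 11.9 in the untreated library, a quotient of 0.953 (normal 95% interval of the log odds ratio 0.911 to 0.996). Ftl1 counts were fractional, and close copies had few reads: the pseudogene Ftl1-ps1 had 4 and 10, and the 6 Fthl17 genes together had 29 and 23.

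The quotient of a receptor read to a ferritin read does not depend on how the libraries are scaled. Tfrc had 0.0866 reads per Fth1 read with manganese and 0.0653 without, 1.33 times as many (exact conditional 95% interval 1.12 to 1.57). Slc40a1 had 0.0189 and 0.00696 reads per Fth1 read, 2.71 times as many (1.73 to 4.38). Both quotients were above 1 beyond counting error. They compare long transcripts with a short one, and longer transcripts had higher ratios among all genes too.

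The pair of iron regulatory proteins differed in their ratios. Ireb2, which encodes IRP2, a protein degraded when iron is plentiful, had 695 reads in the Mn-treated library and 480 in the untreated library, a log2 ratio of 0.47 [0.30 to 0.64]. Aco1 encodes IRP1, which serves as the cytosolic aconitase while it holds an iron-sulphur cluster. It had 942 reads with manganese and 853 without, and its log2 ratio of 0.08 [-0.06 to 0.21] turned to -0.10 with median-ratio scaling. Ireb2 reads per Aco1 read were 0.738 and 0.563, 1.31 times as many with manganese (exact conditional 95% interval 1.13 to 1.53). Both were under 1.5-fold, and neither value speaks to the binding activity of the proteins.

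The trend with length ran through these libraries as a whole. With measured genes split into equal groups by untreated reads per FPKM, a stand-in for transcript length, the median log2 ratio was 0.01 in the shortest, 0.14 in the middle and 0.32 in the longest group. In the longest group 26.6% of genes were higher and 2.73% lower by 1.5-fold. Tfrc, Ireb2, Slc40a1, Ncoa4, Aco1 and Slc25a37 belonged to it. Fth1, Ftl1 and Steap3 belonged to the shortest group, in which 13.1% were higher and 9.66% lower by that fold. Trf, under 0.3 FPKM in the untreated library, was not placed. The cutoffs between the groups were 42.8 and 72.5 reads per FPKM. Ncoa4 and Steap3 fell between them by the Mn-treated library, at 49.3 and 53.4, so their groups depend on the library used. Against the median of its own group, Fth1 at 0.26 was higher and Aco1 at 0.08 lower. The medians of the longest and the shortest group were 0.31 apart, beside a log2 quotient of 0.41 for Tfrc over Fth1 and of 1.44 for Slc40a1 over Fth1. The part of transcript length in these ratios and quotients was not tested.

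Slc25a37, which carries iron into mitochondria for heme and iron-sulphur cluster synthesis, was the lowest of the 10 genes. It had 76 reads in the Mn-treated library and 126 in the untreated library, 1.73-fold lower with manganese, a log2 ratio of -0.79 [-1.22 to -0.37] or -0.97 with median-ratio scaling. Of all measured genes 2.99% had a lower log2 ratio. Its estimated counts were fractional. The related importer Slc25a28, mitoferrin-2, had 517 reads with manganese and 611 without, at -0.30 [-0.48 to -0.13], and was the more abundant of the pair, at 15.1 and 17.8 FPKM. Slc25a37 reads per Slc25a28 read were 0.713 times those of the untreated library (exact conditional 95% interval 0.516 to 0.980).

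Ncoa4, which delivers ferritin to lysosomes so that its iron can be released, gave different values by reads and by FPKM. It had 379 reads in the Mn-treated library and 273 in the untreated library, whole counts with a log2 ratio of 0.41 [0.18 to 0.64]. In FPKM it had 7.68 and 3.35, and in the authors' deposited table the log2 fold change of Ncoa4 is 1.20. The FPKM values imply 49.3 reads per FPKM with manganese and 81.5 without, a shorter implied transcript in the Mn-treated library. Of 11070 measured genes with at least 0.3 FPKM in both libraries, 2.37% had a gap between both ratios as large as that of Ncoa4 in either direction.

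The other members differed less between the measures. In the authors' deposited table Steap3 is at -0.78, past 1.5-fold, with 53.4 and 40.7 reads per FPKM, and Trf is at 2.10, on 2 reads in the untreated library. For the remaining 7 genes the log2 values by reads and by FPKM were within 0.07 of each other.

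**Figure D3:**
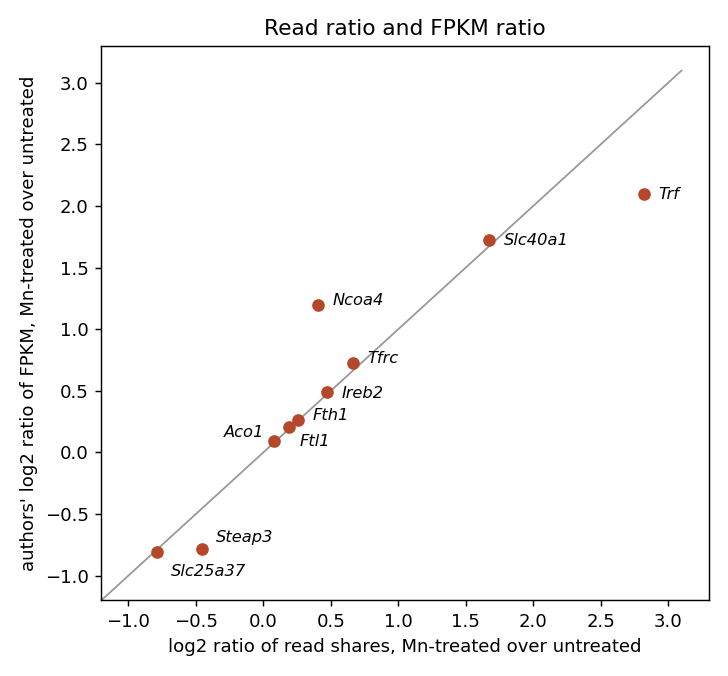
Log2 ratio of FPKM in the authors' deposited table against the log2 ratio of read shares, both Mn-treated over untreated, for the 10 iron genes, with the line of equal values. Ncoa4 lies above the line at 0.41 by reads and 1.20 by FPKM, and Trf and Steap3 lie below it.

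Of the 10 genes, only Tfrc was listed as host of circular RNAs (circRNAs, seen as reads across a back-splice junction). It had 2, with 2 junction reads together in the Mn-treated library and 17 in the untreated library. The larger spanned chr16:32618218-32619176 on the plus strand with a spliced length of 353 bases, and had 2 and 11 reads. The smaller was a single exon of 202 bases at chr16:32614566-32614767, with 0 and 6 reads. Scaled to all 9433 and 11665 junction reads, the sum for Tfrc had a ratio of 0.177 [0.0163 to 0.613], while the reads of the gene had a ratio of 1.58. Among 538 host genes with at least 10 summed junction reads 21.7% were at least 2-fold lower with manganese, and 39 had a lower ratio than Tfrc. Coordinates are as deposited: the submitters' processing notes name mm9, but 98.4% of 2142 circRNAs lay inside the span of their host gene in GRCm38, so their build is uncertain.

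IRE-bearing transcripts were read as a list of 10 known from mouse or human, of which 8 were measured and 4 were among the genes above. Alas2 and Epas1 had 0 reads in both libraries, which allows a share of up to 2.05e-05% with manganese and 2.15e-05% without. By 1.5-fold 2 of 8 were higher, Slc40a1 and Tfrc, and 0 lower, near the 21.6% and 5.97% of all measured genes. The counts were 1 and 0 with median-ratio scaling, beside 13.4% and 11.3% of all measured genes. By the FPKM ratio in the authors' deposited table they were 2 and 1, beside 21.7% and 6.93%. The list's median log2 ratio was 0.22. Among the transcripts with the element ahead of the coding sequence were Ftl1 at 0.19, Fth1 at 0.26 and Slc40a1 at 1.68.

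The transcripts with the element after the coding sequence differed in sign. Slc11a2, the divalent metal transporter that moves iron out of the endosome and carries an IRE in some of its isoforms, had 569 reads in the Mn-treated library and 616 in the untreated library, a log2 ratio of -0.18 [-0.35 to -0.01]. Slc11a2 was in the shortest of the length groups and Tfrc in the longest. Tfrc reads per Slc11a2 read were 1.79 times those of the untreated library (exact conditional 95% interval 1.47 to 2.19). The phosphatase gene Cdc14a was at -0.37 [-0.92 to 0.16] on 54 and 67 reads. The authors' deposited table has Cdc14a at -0.80. The kinase gene Cdc42bpa was at 0.58 [0.42 to 0.75] on 784 and 501 reads. The counts are per gene, so isoforms with and without an IRE were not told apart.

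The list of iron regulatory protein control and cytosolic iron chaperones had 10 measured genes, 4 above the all-gene median of 0.18 and 6 below. It held 4 ligase genes of iron regulatory protein and Ncoa4 turnover. By reads over column totals Fbxl5, Cul1 and Herc2 lay above that median and Skp1a at 0.17 below it. Skp1a was at -0.009 with median-ratio scaling, and Herc2 is at -0.08 in the authors' deposited table. The 2 lowest values of the list were those of Bola2 and Pcbp4. By 1.5-fold 1 of these 10 was higher and 1 lower, beside 21.6% and 5.97% of all measured genes. With median-ratio scaling the counts were 0 and 1, beside 13.4% and 11.3%. The list's median log2 ratio was 0.16. Fbxl5, the iron-sensing ubiquitin ligase subunit that marks IRP2 for degradation, had 490 reads with manganese against 325 without, which put it at 0.53 [0.32 to 0.74]. Its partners Cul1 and Skp1a were at 0.55 [0.34 to 0.77] and 0.17 [0.08 to 0.26], and Herc2, a ligase that targets Ncoa4, at 0.59 [0.46 to 0.72]. At the lower end, Bola2 had 229 reads with manganese against 353 without, at -0.69 [-0.94 to -0.44]. Bola2 works with the glutaredoxin Glrx3 in iron delivery, and Glrx3 was at 0.30 [0.24 to 0.37]. The chaperone family member Pcbp4 was at -0.20, beside Pcbp1 at -0.06, Pcbp2 at 0.08 and Pcbp3 at 0.15.

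Of 10 measured genes of other uptake and reduction routes, 3 were at least 1.5-fold higher and 0 lower. These counts lie near the 21.6% and 5.97% of all measured genes. With a minimum of 100 reads they were 2 and 0, beside 18.8% and 4.65%. The list's median log2 ratio was 0.13. Lrp1, a scavenger receptor that takes up heme bound to hemopexin among other cargo, had 1278 reads with manganese against 693 without, which put it at 0.82 [0.68 to 0.95]. The remaining 2 were scarce: Lcn2, a siderophore-binding protein, had 85 and 34 reads, and Scara5, a ferritin receptor, had 19 and 6. Slc39a14, a zinc family importer that also carries iron and manganese, was at 0.43, Slc46a1 at -0.31 and the lysosomal channel Mcoln1 at -0.23. In the authors' deposited table Slc46a1 is at 0.05.

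Most of the 15 genes listed for iron oxidation, export and systemic iron control had few or no reads in these cells. Of the 15, 9 had 0 reads in both libraries, including hepcidin (Hamp) and the ferroxidase hephaestin (Heph). Of all 22287 genes, 8035 had 0 reads in both. The ferroxidase ceruloplasmin (Cp) had 7 and 3 reads. The 2 measured genes were Hfe with 42 and 28 reads and Neo1, a receptor for hemojuvelin that also acts in axon guidance, with 1332 and 640. The log2 ratio of Neo1 was 0.99 [0.86 to 1.13] and that of Hfe was 0.51 [-0.20 to 1.27]. In the authors' deposited table Neo1 is at 1.52 and Hfe at 1.35.

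Most genes of iron-sulphur cluster assembly and of heme metabolism lay below the median of all genes, and many were short. Of 20 genes of mitochondrial iron and iron-sulphur cluster assembly, 14 had a log2 ratio below 0.18. By 1.5-fold 1 was higher and 2 were lower, beside 21.6% and 5.97% of all measured genes. With median-ratio scaling the counts were 1 and 4, beside 13.4% and 11.3%. By the FPKM ratio in the authors' deposited table they were 1 and 1, beside 21.7% and 6.93%. The list's median log2 ratio was 0.04. In the shortest length group, with its median of 0.01, were 11 of the 20, and 12 of the 20 lay below the median of their own length group. Tmem14c, which moves a heme precursor into the mitochondrial matrix, was at -0.59 [-0.74 to -0.44] by reads. The authors' deposited table has Tmem14c at -0.57, under 1.5-fold. Lyrm4, the partner of the sulphur donor Nfs1, was at 0.78 [0.43 to 1.14] with 187 and 104 reads.

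In the cytosolic assembly pathway 7 of 9 genes lay below the median of all genes, with a median log2 ratio of -0.11. By 1.5-fold 0 were higher and 1 lower, beside 21.6% and 5.97% of all measured genes. With median-ratio scaling the counts were 0 and 3, beside 13.4% and 11.3%. By the FPKM ratio in the authors' deposited table, where Nubp1 is at -0.58, they were 0 and 0, beside 21.7% and 6.93%. Of the 9, 4 were in the shortest length group, and 7 lay below the median of their own group. The scaffold proteins Nubp1 and Nubp2 were at -0.60 [-0.71 to -0.50] and -0.48 [-0.60 to -0.35]. Ndor1, which passes electrons to the pathway, was at 0.52 and Ciao2a at 0.23.

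Of 16 measured genes of heme synthesis, export and breakdown, 12 lay below the median of all genes, and their median was -0.07. By 1.5-fold 2 were higher and 1 lower, beside 21.6% and 5.97% of all measured genes. With median-ratio scaling the counts were 1 and 4, beside 13.4% and 11.3%. By the FPKM ratio in the authors' deposited table, where Alad is at -0.58, they were 1 and 0, beside 21.7% and 6.93%. In the shortest length group were 11 of the 16, and 9 of the 16 lay below the median of their own group. The part of length in the values of these 3 lists was not tested. Alad, the second enzyme of heme synthesis, had 2660 reads with manganese and 3848 without, at -0.60 [-0.67 to -0.53]. Fech, which inserts iron into the ring as the last step, had 938 and 590, at 0.60 [0.46 to 0.76]. Alad and Fech lay on opposite sides of the middle gene. Abcg2, a porphyrin exporter and the other gene past 1.5-fold upward by reads, had 29 and 14 reads. That put it at 0.96 [0.02 to 2.02]. In the authors' deposited table Abcg2 is at -0.50, with 63.0 and 21.5 reads per FPKM, so its direction differed between the measures. The biliverdin reductase Blvra was at -0.57 with 73 and 104 reads, beside Hmox1, heme oxygenase, at 0.50. Estimated counts were fractional for Fech, Fbxl5, Neo1, Slc11a2, Slc39a14, Ndor1, Pcbp2 and Pcbp3.

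**Figure D4:**
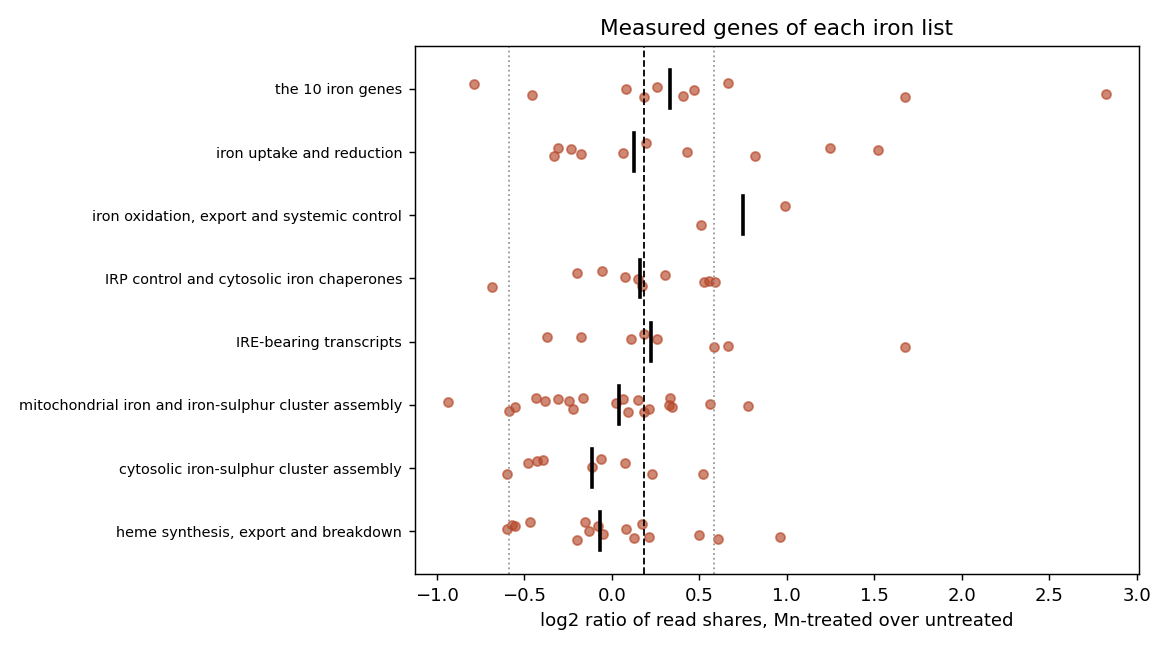
Log2 ratio of read shares, Mn-treated over untreated, of each measured gene in the iron lists, with 1 point per gene and a bar at each list's median. The dashed line is the median of all measured genes at 0.18 and dotted lines mark 1.5-fold, and the medians of 5 lists lie left of the dashed line, those of both iron-sulphur lists, the heme list, the uptake list and the list of iron regulatory protein control and chaperones.

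The promoters of 7 of the 10 genes were in the RefSeq table (GRCm38.p6), and those of Tfrc and Ncoa4 are printed because they held matches to stress-response motifs. Searched on both strands in the 250 bases before each start were the hypoxia response core ACGTG, the antioxidant response element TGACNNNGC, and the metal response cores TGCGCNC and TGCACNC. Of 32851 windows in the table, 16.6% held ACGTG, 10.2% held TGACNNNGC, 12.5% held TGCGCNC and 10.4% held TGCACNC. The listed windows of Steap3, Fth1, Ftl1, Aco1 and Ireb2 held none of these motifs. TFRC is a known target of hypoxia-inducible factor in human cells. In the lines below capitals mark the matches, all on GRCm38.p6 and the plus strand. The 250 bases before the upstream start of Tfrc, chr16:32608646-32608895, held 2 overlapping matches to TGCGCNC, and ACGTG lay across that start itself, in chr16:32608884-32608908. The 250 bases before the upstream start of Ncoa4, chr14:32159637-32159886, held ACGTG on the minus strand. The most downstream start of Ncoa4 had ACGTG beside TGCGCNC on the minus strand, in chr14:32165715-32165740, and TGACNNNGC in chr14:32165739-32165759.
Tfrc upstream start: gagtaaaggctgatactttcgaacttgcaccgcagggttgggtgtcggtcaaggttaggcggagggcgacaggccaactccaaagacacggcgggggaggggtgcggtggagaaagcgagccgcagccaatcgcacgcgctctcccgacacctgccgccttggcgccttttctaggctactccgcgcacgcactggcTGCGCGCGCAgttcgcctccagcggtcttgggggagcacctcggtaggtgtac
Tfrc at the start: cggtaggtgtACGTGcggaaggaag
Ncoa4 upstream start: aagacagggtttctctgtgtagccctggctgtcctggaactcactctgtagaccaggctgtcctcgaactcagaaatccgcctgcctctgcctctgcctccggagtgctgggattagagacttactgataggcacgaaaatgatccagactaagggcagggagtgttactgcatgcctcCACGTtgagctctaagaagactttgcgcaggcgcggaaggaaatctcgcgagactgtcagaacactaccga
Ncoa4 downstream start, hypoxia and metal cores: agggagACGTGacGCGCGCAaggcgg
Ncoa4 downstream start, antioxidant element: ggggcgTGACCTGGCcggtag
The search also covered the loop of an iron-responsive element with its bulge on the plus strand of windows that reach 50 bases past the start. None of the listed windows of these genes held it, against 10.4% of all windows. Slc40a1 had no window, and the element of Tfrc lies after the coding sequence, which windows at a start do not reach. In Fth1 and Ftl1, an element farther than 50 bases past a listed start would lie outside the windows. The search therefore cannot tell whether these transcripts carry the element. A match is a description of the letters and not evidence of a bound factor.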

How the data were processed

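Total RNA libraries of Mn-treated and untreated N2a cells were compared, 1 each. The authors deposited estimated counts and FPKM values per gene, and a log2 fold change, which is the ratio of the FPKM values with 0 written as 0.001. CircRNAs come as whole junction read counts deposited by the authors. The authors also deposited p-values of an unnamed test, which were not used. The submitters' processing notes list Bowtie2, StringTie, fastp 0.18.0 and build mm9, while the sources used here give no role for them, no counting program and no annotation. Every column used was assigned to a library by the condition in its name and in the sample's title.

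The estimated counts were rounded to whole numbers. Ratios used a pseudocount of 0.5 reads over the column total, with Clopper-Pearson 95% intervals. Intervals and the limit of 3 counts for a count of 0 cover counting error only, since PCR copies of a molecule cannot be recognised here. With 1 library per condition no test was made. The ratio step was tested on simulated data. The members and lists were chosen with earlier results of these data known. Named genes are the members, the measured IRE transcripts and, per other list, the 2 highest and 2 lowest that reached 100 reads in either library. Genes named beyond these (among them Fbxl5, Slc25a28, Lcn2, Scara5, Hfe and the markers) were chosen after their values were seen. Single values of some genes that the rule takes are left out of this text. Alternatives were median-ratio scaling, the FPKM ratio, a pseudocount of 1, unrounded counts and minimums of 1 and 100 reads. Python 3.11.15, numpy 2.4.6 and scipy 1.17.1 were used.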

Additional observations from a re-analysis of the deposited data

How the results depend on the processing

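With median-ratio scaling 2 of the 10 genes were at least 1.5-fold lower (Slc25a37 and Steap3), and all measured genes split into 1587 higher and 1343 lower, against 2564 and 709 with column totals. By the FPKM ratio in the authors' deposited table, 2 of the 10 were at least 1.5-fold lower as well, beside 6.93% of all measured genes. With a minimum of 1 read, 3912 genes were higher and 1401 lower. Scaling moved the values of Fth1, Ftl1, Ireb2 and Aco1 outside their counting intervals, and Aco1 changed sign, while the FPKM ratio did so for Ncoa4. A pseudocount of 1 and unrounded counts left all 10 inside. No value of a member past 1.5-fold reversed under these alternatives. Without replicates, the spread between cultures is unknown. Read depth limits Trf most, with 20 reads in all. No paired analysis was possible because each condition had 1 library.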
